A study of Homo sapiens with 12 samples.

Results

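The 10 genes described here encode the core enzymes that repair or prevent oxidized bases in DNA: OGG1, MUTYH, NTHL1, NEIL1, NEIL2, NUDT1, APEX1, XRCC1, PARP1 and POLB. They were chosen by gene symbol from the 58735 genes of the count table. Each symbol was found once, and all 10 were among the 16618 genes that passed the filter of a mean raw count of at least 10. RNA was sequenced from HaCaT, immortalized keratinocytes of human skin, and from TIGK, their immortalized counterpart from human gingiva. Both lines were grown in DermaLife K medium and were either left untreated (Hctrl and Tctrl) or given 5 mM H2O2 for 3 h (Hhp and Thp), with 3 libraries in each of the 4 groups. The treatment label changes the last digit of the formula from replicate to replicate, whereas the treatment protocol names H2O2 for all treated samples. Nothing in the labels says whether the 3 libraries of a group came from separate cultures, so the p-values measure the spread between these libraries, which may be technical. Each site is represented by 1 line, and a difference between the lines cannot be told apart from a difference between skin and gingiva or between donors.

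Base excision repair removes small chemical lesions from DNA. A DNA glycosylase finds the damaged base and cuts it from the sugar, an endonuclease opens the strand at the empty site, and a polymerase and a ligase fill and seal the gap, while PARP1 and XRCC1 gather the enzymes at the nick. H2O2 oxidizes guanine to 8-oxoguanine, which pairs with adenine if it is copied, and 3 of the genes form the classical defence against it: NUDT1 clears the oxidized nucleotide from the pool before it is used, OGG1 removes 8-oxoguanine opposite cytosine, and MUTYH removes the adenine wrongly placed opposite it.

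Total counts lay between 30426401 and 49034244 per library, and replicates of a group differed by more than counting noise. All 11 keratinocyte markers, among them KRT5, KRT14 and TP63, were expressed in all 4 groups, with summed normalized counts from 1466000 to 1734000 per library, while the 3 leukocyte markers together reached at most 5.563, the 5 melanocyte markers 97.75 and the 3 endothelial markers 59.67. The summed level of 6 fibroblast markers differed between the lines, at 799.7 to 847.1 in Tctrl and 926.3 to 937.5 in Thp against 319.4 to 417.7 in Hctrl and 310.7 to 396.4 in Hhp. Among them, DCN had means of 196.7 in Tctrl and 236.3 in Thp, and of 4.91 in Hctrl and 0.712 in Hhp. The share of counts from the mitochondrial chromosome was 3.33% to 3.45% in Tctrl, 1.39% to 1.5% in Thp, 6.10% to 6.26% in Hctrl and 3.30% to 3.51% in Hhp. The part of the fibroblast markers and of the mitochondrial share in the differences below was not tested. In bulk RNA, fewer cells with a transcript and less of it per cell cannot be told apart.

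The promoter stretches of OGG1, NTHL1 and APEX1 are shown because the results turn on these genes: OGG1 had the largest difference between the lines' responses among the members, and NTHL1 and APEX1 are the members that rose past the limit in both. The sequences were taken from RefSeq promoters of GRCh38.p14, whose table held 8 of the 10 members, with NEIL2 and POLB missing from it, and are printed 5′ to 3′ on the strand of the gene. The stretch of OGG1 is chr3:9749702-9749943 on the plus strand, 242 bases directly before the start of the gene in the count table. That of NTHL1 is chr16:2047867-2047966 on the minus strand, 100 bases inside an intron of its head-to-head neighbour TSC2. That of APEX1 is chr14:20455106-20455190 on the plus strand, the 85 bases that separate its start from that of OSGEP. Capitals mark CCAAT and GGGCGG on either strand, and the octamer TCACGTGA.
OGG1: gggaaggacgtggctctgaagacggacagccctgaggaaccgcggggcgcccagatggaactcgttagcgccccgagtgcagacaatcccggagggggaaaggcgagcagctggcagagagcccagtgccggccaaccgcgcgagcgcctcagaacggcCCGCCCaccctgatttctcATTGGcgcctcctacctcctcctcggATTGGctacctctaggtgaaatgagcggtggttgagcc
NTHL1: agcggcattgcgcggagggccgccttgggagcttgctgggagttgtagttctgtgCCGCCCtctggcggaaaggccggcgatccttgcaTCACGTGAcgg
APEX1: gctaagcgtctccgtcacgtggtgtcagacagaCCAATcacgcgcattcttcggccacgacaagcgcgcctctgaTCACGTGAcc

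The table held 13 promoter windows for the 8 members (250 bases before to 50 after a start), as some genes have several starts. CCAAT was in 7 of the 13 windows, from 6 members, against 34.6% of all 35116 windows, and GGGCGG in 9 of the 13, from 7 members, against 45%. The core of the antioxidant response element, TGACNNNGC, was found in 2 of the 13 windows (MUTYH and NTHL1) and in 13.3% of all, and CCGGAAG in 3 of the 13 (OGG1, NTHL1 and NUDT1) and in 10.3%. GCATGCGC (3.05% of windows), TTTGGCGC or TTTCCCGC (2.27%) and TGACGTCA (1.85%) were in 0 of the 13. The octamer TCACGTGA was picked after the promoters had been read. It lay 43 bases before the RefSeq start of NTHL1 and 45 before that of APEX1, in no other member, and in 0.98% of windows. Among the 237 tested genes with it, 14.3% were higher after H2O2 in TIGK and 24.9% in HaCaT, against 11.9% and 22.4% of the 11126 tested genes with a promoter in the table. Lower were 11.8% in TIGK and 19.4% in HaCaT, against 13.8% and 15.7%. The median log2 fold change was 0.0823 with the octamer and 0.0264 over all these genes in TIGK, and 0.0676 and 0.0643 in HaCaT. These are matches of letters and say nothing of which factors bind there.

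Measured as CPM per kilobase of gene length, the members spanned a wide range, in the same broad order in both lines. APEX1 stood highest in every group, with means of 86.7 in Tctrl, 105.7 in Thp, 98.6 in Hctrl and 131.5 in Hhp. PARP1 followed at 38.5, 38.8, 31.8 and 36.0, and NUDT1 at 9.30, 9.85, 16.2 and 20.7, and the libraries of these 3 genes did not overlap within any group. MUTYH came next in Tctrl, Thp and Hctrl, at 5.38, 6.30 and 4.58, and in Hhp its libraries overlapped those of NTHL1. In the middle of the order, NEIL2 and XRCC1 overlapped in all groups but Tctrl, where each overlapped NTHL1, which stood between them. OGG1 and NEIL1 were lowest in all 4 groups. OGG1 was above NEIL1 in Tctrl (1.01 against 0.626), Thp and Hhp, and below it in Hctrl (0.799 against 1.09), without overlap in any of them.

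**Figure D1:**
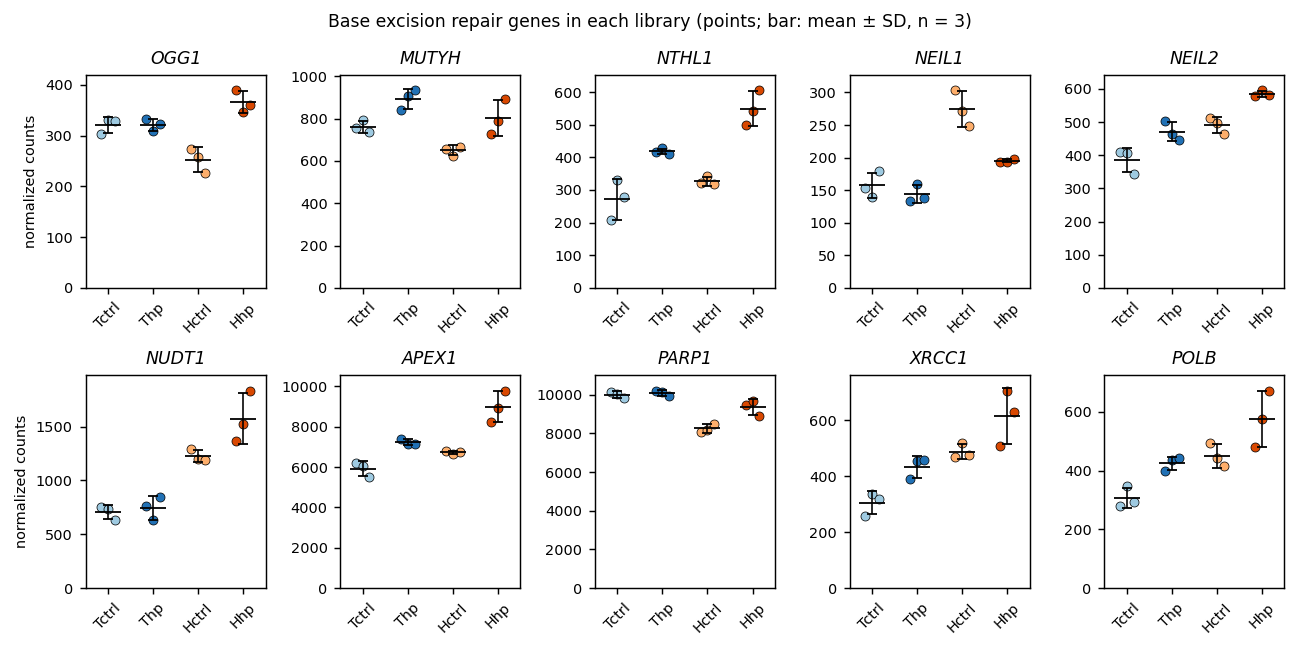
Normalized counts of the 10 genes in the 12 libraries (vertical axes, linear and starting at 0; points are libraries, the bar is the mean and the whiskers the SD, n = 3), by group. OGG1 sits level in TIGK and rises in HaCaT, NEIL1 is lower in Hhp than in Hctrl, and all HaCaT libraries of NUDT1 lie above all TIGK libraries.

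The comparison of treated with untreated cells asks how each line's repair transcripts stand after the oxidant. In TIGK, 4 of the 10 members rose past the limit (adjusted p below 0.01, edgeR quasi-likelihood test) and 0 fell, where 23.2% of all genes tested were called, 10.2% as higher and 12.9% as lower. These were NTHL1, APEX1, XRCC1 and POLB, by 1.22- to 1.54-fold. In HaCaT, 5 rose and 1 fell, against 34.1% of all genes called, 18.9% as higher and 15.2% as lower. OGG1, MUTYH, NTHL1, APEX1 and PARP1 rose by 1.13- to 1.68-fold, and NEIL1 fell. The median log2 fold change of the 10 members was 0.26 in TIGK and 0.35 in HaCaT, against 0.01 and 0.04 over all genes tested. The 3 treated and 3 untreated libraries did not overlap for 6 members in TIGK and 8 in HaCaT, which held for 51.1% and 53.8% of all genes. In TIGK, 2 members were called without any 1 of Tctrl 1, Tctrl 3, Thp 2 and Thp 3, and in HaCaT 3 without any 1 of Hctrl 1, Hctrl 2 and Hhp 2. Over all genes, these fits called 20.3%, 17.2%, 17.7% and 17.6% in TIGK, and 27.8%, 27.5% and 28.3% in HaCaT. Fitted with a block on replicate numbers, 3 members passed the limit in HaCaT, as did 30.2% of all genes.

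**Figure D2:**
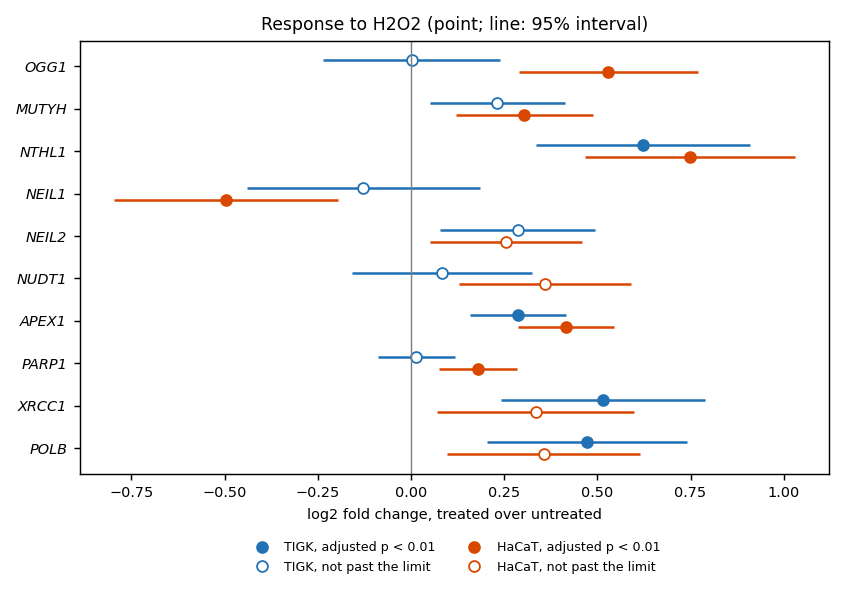
Log2 fold change of each gene after H2O2 (horizontal axis; treated over untreated) in TIGK and HaCaT, with 95% intervals; filled points passed the limit of 0.01 on the adjusted p. NTHL1 and APEX1 are filled in both lines, and the intervals of OGG1 in TIGK (-0.24 to 0.24) and HaCaT (0.29 to 0.77) do not touch.

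OGG1 (ENSG00000114026, chr3:9749944-9788219, plus strand), the glycosylase for 8-oxoguanine, was level in TIGK and rose in HaCaT. Its normalized counts were 303, 332 and 328 in Tctrl and 333, 309 and 322 in Thp. In HaCaT they were 274, 259 and 226 in Hctrl and 389, 347 and 360 in Hhp. The TIGK groups overlapped fully, whereas every Hhp library was above every other library of the series and every Hctrl library below every other. On the log2 scale, the response was 0.00 in TIGK (SE 0.113, adjusted p = 0.993) and 0.53 in HaCaT (SE 0.114, adjusted p = 0.000981, 1.44-fold). The HaCaT call held under all 20 alternatives computed for it, with adjusted p from 7.83e-05 to 0.00772. The response in TIGK was lower than that in HaCaT by a log2 difference of -0.53 (SE 0.161, 95% interval -0.86 to -0.19), whose adjusted p of 0.039 missed the limit of 0.01. Before H2O2, OGG1 in HaCaT was at -0.34 relative to TIGK (SE 0.115, adjusted p = 0.0129), which also missed it, and DESeq2 gave an adjusted p of 0.00523. With upper quartile scaling (0.00521) and library totals as scaling (0.00426) this difference passed the limit too. After H2O2, the log2 difference was 0.19 (adjusted p = 0.151). The line difference before H2O2 and the HaCaT response share the Hctrl libraries, so the low level there enters both. The gene overlaps 8360 bases of TADA3 on the opposite strand, and TADA3 had a log2 fold change of 0.29 in HaCaT (SE 0.0666, adjusted p = 0.00154, and 0.0109 without Hctrl 3) and 0.22 in TIGK (adjusted p = 0.0166). Between the lines TADA3 was higher in HaCaT, by 0.59 before H2O2 (adjusted p = 2.5e-07) and 0.66 after it (adjusted p = 4.82e-08). Whether the counting used strand is not stated, and the part of such reads in the OGG1 counts was not tested.

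MUTYH (ENSG00000132781, chr1:45329163-45340470, minus strand), the glycosylase that removes adenine opposite 8-oxoguanine, was higher in treated than in untreated libraries of both lines without overlap. Normalized counts were 757, 792 and 738 in Tctrl and 840.05, 907 and 934 in Thp, and 658, 623 and 668 in Hctrl and 725, 787 and 894 in Hhp. The log2 fold change passed the limit in HaCaT (0.30, SE 0.0876, adjusted p = 0.00829) and not in TIGK (0.23, SE 0.0864, adjusted p = 0.0442), and the responses differed by -0.07 (95% interval -0.33 to 0.19). The HaCaT call was lost in 15 of 20 alternatives, among them those without Hctrl 1, Hctrl 2, Hctrl 3, Hhp 2, Hhp 3, Tctrl 1, Tctrl 2, Thp 2 or Thp 3 (adjusted p = 0.0221, 0.0369, 0.017, 0.0159, 0.0593, 0.0104, 0.024, 0.0255 and 0.0239). RLE scaling (0.0111), upper quartile scaling (0.0201), no filter (0.0272), filterByExpr (0.0172), the replicate block (0.0126) and the groups fitted alone (0.04) lost it too. Every untreated HaCaT library was below every untreated TIGK library, with a log2 difference of -0.23 whose adjusted p was 0.0263.

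NUDT1 (ENSG00000106268, chr7:2242222-2251146, plus strand), also known as MTH1, hydrolyses oxidized purine nucleotides. It showed the widest difference between the lines among the members after H2O2. Normalized counts were 750.5, 738 and 629 in Tctrl and 762, 630 and 850.3 in Thp, against 1294, 1198 and 1191 in Hctrl and 1368, 1520.3 and 1834 in Hhp. The lowest HaCaT library was above the highest TIGK library, and within TIGK the treated libraries spread around the untreated ones. HaCaT was higher by 0.80 on the log2 scale before H2O2 (SE 0.113, adjusted p = 4.08e-06, 1.74-fold) and by 1.07 after it (SE 0.113, adjusted p = 7.61e-08). The log2 fold change after H2O2 was 0.08 in TIGK (adjusted p = 0.607) and 0.36 in HaCaT (SE 0.11, adjusted p = 0.0121). The HaCaT value missed the limit although all 3 Hhp libraries were above all Hctrl libraries, and it passed without Hhp 1 (0.00523) and without Tctrl 3 (0.00874). It also passed with DESeq2 (0.00956), library totals as scaling (0.00815) and no filter (0.0011). The responses differed by -0.27 with an interval from -0.61 to 0.06.

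NTHL1 (ENSG00000065057, chr16:2039815-2047866, minus strand) encodes the glycosylase for oxidized pyrimidines such as thymine glycol and had the largest log2 fold change of the members in both lines. Its normalized counts were 206, 331 and 277 in Tctrl and 415, 427 and 411 in Thp. In HaCaT they were 321, 343 and 317 in Hctrl and 499.5, 542 and 605 in Hhp. Neither line's groups overlapped, and the untreated TIGK libraries spread most, with a CV of 23.0%. The log2 fold change was 0.62 in TIGK (SE 0.137, adjusted p = 0.00165, 1.54-fold) and 0.75 in HaCaT (SE 0.134, adjusted p = 0.000188, 1.68-fold). Both passed the limit in all 20 alternatives, and without 1 library the TIGK value lay between 0.46 and 0.81. The responses differed by -0.13 (95% interval -0.53 to 0.28). HaCaT and TIGK differed by 0.27 before H2O2 (adjusted p = 0.0945) and by 0.39 after it (adjusted p = 0.0131). The line difference passed the limit before H2O2 without Tctrl 2 (0.45, adjusted p = 0.00971) and after it without Tctrl 1 (adjusted p = 0.00372). With the groups fitted alone, the difference after H2O2 passed it too (adjusted p = 0.00726).

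NEIL1 (ENSG00000140398, chr15:75346955-75357114, plus strand), a glycosylase for oxidized pyrimidines and ring-opened purines, was the only member to fall past the limit. It had 154, 139.97 and 179 normalized counts in Tctrl and 133, 159.9 and 139 in Thp, which overlapped. In HaCaT it went from 303, 272 and 248.8 in Hctrl to 194, 194 and 197.5 in Hhp. All untreated HaCaT libraries were above all others, and the Hhp libraries stood between them and the TIGK libraries. Its log2 response was -0.50 in HaCaT (SE 0.143, adjusted p = 0.0082, 0.709-fold) and -0.13 in TIGK (SE 0.15, adjusted p = 0.541), and the difference of 0.37 between the responses had an interval from -0.07 to 0.80 (adjusted p = 0.276). HaCaT was higher than TIGK by 0.80 before H2O2 (SE 0.145, adjusted p = 6.57e-05), and the log2 difference was 0.44 after it (adjusted p = 0.0141). The fall in HaCaT was lost without Hctrl 1, Hctrl 2, Hhp 1, Hhp 2, Hhp 3 or Tctrl 1 (adjusted p = 0.0463, 0.0199, 0.0145, 0.023, 0.0195 and 0.01). It was also lost with the replicate block (0.0158), library totals as scaling (0.0105) and no filter (0.0125), and held in 11 of 20 alternatives. NEIL1 shares 1908 bases with the end of MAN2C1 on the opposite strand. MAN2C1 fell in HaCaT by 0.37 on the log2 scale (adjusted p = 0.000191) and was higher there before H2O2 by 0.60 (adjusted p = 1.27e-07). Both genes thus moved the same way in these comparisons, and the part of shared reads was not tested.

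NEIL2 (ENSG00000154328), which acts on oxidized bases in bubbles and single strands, missed the limit in both responses without overlap of the groups in either. Its normalized counts were 409, 405 and 343 in Tctrl, 502, 464 and 447 in Thp, 511, 497 and 464 in Hctrl, and 579, 596 and 583 in Hhp. The treated libraries were above the untreated ones in each line, and the HaCaT libraries above the TIGK libraries in each state. The fitted log2 response was 0.29 in TIGK (SE 0.0993, adjusted p = 0.0309) and 0.25 in HaCaT (SE 0.0974, adjusted p = 0.0392), and 0 of 20 alternatives called either. HaCaT was higher by 0.35 before H2O2 (SE 0.099, adjusted p = 0.00434) and by 0.32 after it (SE 0.0977, adjusted p = 0.00768). The former held in 14 of 20 alternatives. It was lost without Hctrl 1, Hctrl 2 or Tctrl 3 (adjusted p = 0.0191, 0.0132 and 0.0321), with upper quartile scaling (0.0125), library totals as scaling (0.0194) and the groups fitted alone (0.0134). The latter held in 8 of 20. It was lost without Hhp 1, Hhp 2, Hhp 3, Tctrl 2, Thp 2 or Thp 3 (0.0294, 0.0206, 0.0147, 0.0247, 0.0565 and 0.0865). RLE scaling (0.016), upper quartile scaling (0.0381), library totals (0.0367), no filter (0.0427), filterByExpr (0.0199) and the groups fitted alone (0.0176) lost it too.

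APEX1 (ENSG00000100823, chr14:20455191-20457772, plus strand), the main endonuclease for empty sites and a redox regulator of transcription factors, rose in both lines. Normalized counts were 6214, 6061 and 5512 in Tctrl and 7403, 7145 and 7156 in Thp. In HaCaT they were 6822, 6668 and 6739 in Hctrl and 8244, 8955 and 9795 in Hhp. The treated libraries of each line lay above all untreated libraries of both lines. The log2 fold change was 0.29 in TIGK (SE 0.0616, adjusted p = 0.00135, 1.22-fold) and 0.42 in HaCaT (SE 0.0615, adjusted p = 2.79e-05, 1.33-fold), and both passed the limit in all 20 alternatives. The responses differed by -0.13 (95% interval -0.31 to 0.05). HaCaT was higher by 0.31 after H2O2 (SE 0.0614, adjusted p = 0.000157). Before it, the log2 difference was 0.19 and missed the limit (SE 0.0617, adjusted p = 0.0122), which it passed without Hhp 1 (0.00278) or Hhp 3 (0.00283). With no filter (0.00187) and with filterByExpr (0.00818) it passed too. The 54 bases that the gene shares with PIP4P1 on the opposite strand are a small stretch of its length of 1886, and PIP4P1 rose too, by 0.41 in TIGK (adjusted p = 0.000466) and 0.65 in HaCaT (adjusted p = 2.64e-06).

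PARP1 (ENSG00000143799, chr1:226360691-226408079, minus strand), the sensor that marks strand breaks with ADP-ribose chains, had the log2 fold change of smallest absolute size among the members in HaCaT. It had 10141, 10045 and 9808 normalized counts in Tctrl and 10212, 10156 and 9925 in Thp. HaCaT held 8078, 8196 and 8500 in Hctrl and 9457, 9701 and 8904 in Hhp. The TIGK groups overlapped, the HaCaT groups did not, and every HaCaT library was below every TIGK library. Fitted log2 fold changes were 0.01 in TIGK (SE 0.0494, adjusted p = 0.851) and 0.18 in HaCaT (SE 0.0495, adjusted p = 0.00606, 1.13-fold), and the responses differed by -0.17 (95% interval -0.31 to -0.02, adjusted p = 0.139). The HaCaT call held in 6 of 20 alternatives. It was lost without Hctrl 1, Hctrl 2, Hctrl 3, Hhp 1, Hhp 2, Tctrl 2, Thp 2 or Thp 3 (adjusted p = 0.0354, 0.0262, 0.0101, 0.0414, 0.0265, 0.0322, 0.0322 and 0.0271). RLE scaling (0.0124), upper quartile scaling (0.0264), no filter (0.0468), filterByExpr (0.018), the replicate block (0.0144) and the groups fitted alone (0.0548) lost it too. HaCaT was lower than TIGK by a log2 difference of -0.28 before H2O2 (SE 0.0495, adjusted p = 6.38e-05), and the difference was -0.11 after it (adjusted p = 0.0548).

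XRCC1 (ENSG00000073050, chr19:43543040-43580473, minus strand), the scaffold that holds polymerase and ligase at the nick, rose in TIGK. Its normalized counts were 258, 337 and 318 in Tctrl and 389, 454 and 459 in Thp, without overlap. In HaCaT they were 468, 517 and 476 in Hctrl and 507, 705 and 628 in Hhp, where the lowest treated library lay below the highest untreated one. The log2 fold change reached 0.52 in TIGK (SE 0.13, adjusted p = 0.00478, 1.43-fold) and 0.33 in HaCaT (SE 0.125, adjusted p = 0.0356), and the responses differed by 0.18 with an interval from -0.20 to 0.56. The TIGK call was lost without Tctrl 1, Tctrl 3, Thp 2 or Thp 3 (adjusted p = 0.0299, 0.01, 0.0153 and 0.0174), and the HaCaT value passed the limit without Hhp 1 (0.42, adjusted p = 0.00806). HaCaT was higher by 0.68 before H2O2 (SE 0.13, adjusted p = 0.00013, 1.60-fold) and by 0.50 after it (SE 0.126, adjusted p = 0.00183), the latter not without Hhp 2 (0.0164) or Thp 1 (0.0135). XRCC1 shares 3674 bases with PINLYP on the opposite strand, a gene with a mean of 37.6 raw counts that was also higher in HaCaT before H2O2 (4.62, adjusted p = 1.49e-06).

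POLB (ENSG00000070501), the polymerase that fills the gap of 1 nucleotide and trims the sugar remnant, rose in TIGK. Normalized counts were 281, 347 and 294 in Tctrl and 400.3, 435 and 442 in Thp, without overlap, and 493, 442 and 415 in Hctrl and 482, 575 and 673 in Hhp, with overlap. Its log2 fold change was 0.47 in TIGK (SE 0.128, adjusted p = 0.00742, 1.39-fold) and 0.36 in HaCaT (SE 0.123, adjusted p = 0.0241), and the responses differed by 0.12 with an interval from -0.26 to 0.49. The TIGK call was lost without Tctrl 1, Tctrl 3, Thp 1, Thp 2, Thp 3, Hctrl 2 or Hhp 2 (adjusted p = 0.0354, 0.0297, 0.0125, 0.0198, 0.0231, 0.0105 and 0.0101) and with the replicate block (0.0126), and the HaCaT value passed the limit without Hhp 1 (0.00666). HaCaT was higher by 0.55 before H2O2 (SE 0.127, adjusted p = 0.000774, 1.47-fold) and by 0.44 after it (SE 0.124, adjusted p = 0.00429). The latter was lost without Hhp 2, Hhp 3, Thp 1, Thp 2 or Thp 3 (0.0111, 0.0346, 0.0217, 0.0224 and 0.0203). Upper quartile scaling (0.0156) and library totals as scaling (0.0149) lost it too.

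The comparison of the lines asks whether HaCaT and TIGK start from, and end at, different levels of these transcripts. Before H2O2, 5 members were higher in HaCaT (NEIL1, NEIL2, NUDT1, XRCC1 and POLB) and 1 was lower (PARP1), where 59.9% of all genes tested were called, 29.1% as higher and 30.8% as lower. After H2O2, 5 were higher in HaCaT (NEIL2, NUDT1, APEX1, XRCC1 and POLB) and 0 lower, against 60% of all genes called, 30.2% as higher and 29.8% as lower. The median log2 difference of the members was 0.31 before and 0.36 after H2O2, against -0.01 and 0.02 over all genes tested. The libraries of the lines did not overlap for 9 members in each state, which held for 73.3% and 71.3% of all genes. After H2O2, the count of 5 dropped to 3 without any 1 of Thp 1, Thp 2, Thp 3 and Hhp 3, and to 2 without Hhp 2. These fits called 55% to 58.3% of all genes. DESeq2 called 7 members before H2O2, with OGG1 as a further lower one, and 6 after it, with PARP1 as a lower one (adjusted p = 0.00444). Over all genes, DESeq2 called 62% and 62.1%.

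**Figure D3:**
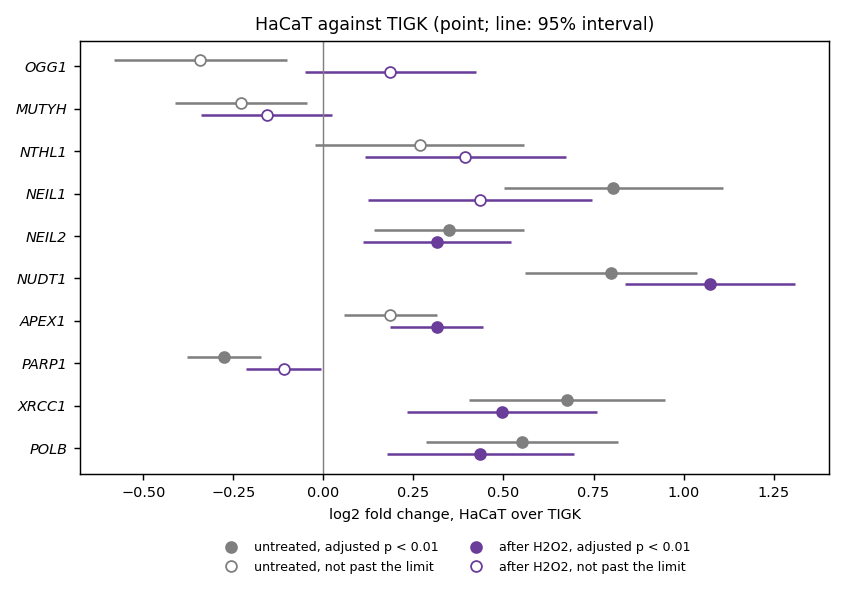
Log2 difference between HaCaT and TIGK for each gene (horizontal axis; HaCaT over TIGK), before and after H2O2, with 95% intervals; filled points passed the limit of 0.01 on the adjusted p. NUDT1 lies farthest to the right after H2O2 (1.07), and OGG1 lies left of 0 before H2O2 (-0.34) and right of it after (0.19).

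The difference of the responses asks whether H2O2 acted unequally in the lines. The edgeR test called 0 of the 10 members, where 5.3% of all genes tested were called (2.32% with the higher response in TIGK and 2.98% with the lower), and DESeq2 called 0 as well. Both tools gave an unadjusted p below 0.05 to 2 members, OGG1 and PARP1, each with the lower response in TIGK. A member called in 1 line and not in the other, as XRCC1, POLB, MUTYH or NEIL1, was therefore not shown to respond differently.

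Of the members, 5 start within 1000 bases of a gene on the opposite strand, and 4 of these neighbours were expressed enough to be tested. TSC2, which encodes a brake on the growth kinase mTOR, starts 401 bases from NTHL1 and had log2 fold changes of -0.13 in TIGK (SE 0.0636, adjusted p = 0.106) and -0.09 in HaCaT (SE 0.0643, adjusted p = 0.279). OSGEP, a tRNA-modifying enzyme, starts 86 bases from APEX1 and had 0.01 (SE 0.0783, adjusted p = 0.968) and -0.02 (SE 0.0797, adjusted p = 0.873). So neither neighbour of the 2 members that rose in both lines passed the limit. TOE1, an RNA deadenylase whose start is 800 bases from that of MUTYH, had 0.09 in TIGK (adjusted p = 0.497) and -0.21 in HaCaT (SE 0.0954, adjusted p = 0.073), the latter opposite in sign to MUTYH. MRM2, a methyltransferase of mitochondrial ribosomal RNA 24 bases from NUDT1, had 0.10 (adjusted p = 0.196) and 0.02 (adjusted p = 0.856). Between the lines MRM2 was, like NUDT1, higher in HaCaT, by 0.46 before H2O2 (adjusted p = 1.19e-06). OSGEP was lower in HaCaT, by a log2 difference of -0.28 before H2O2 (adjusted p = 0.00389) and -0.31 after it (0.00212), whereas APEX1 was higher there after it. TSC2 was lower too, at -0.28 (0.000783) and -0.23 (0.0038), and TOE1 was at -0.07 (0.553) and -0.37 (0.00206). The antisense gene AC068338.3 beside NEIL1 had a mean of 2.25 raw counts and was not tested. The difference between a member and its neighbour was not itself tested. TSC2 overlaps NTHL1 by 402 bases and TOE1 overlaps MUTYH by 801, and the part of shared reads was not tested.

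**Figure D4:**
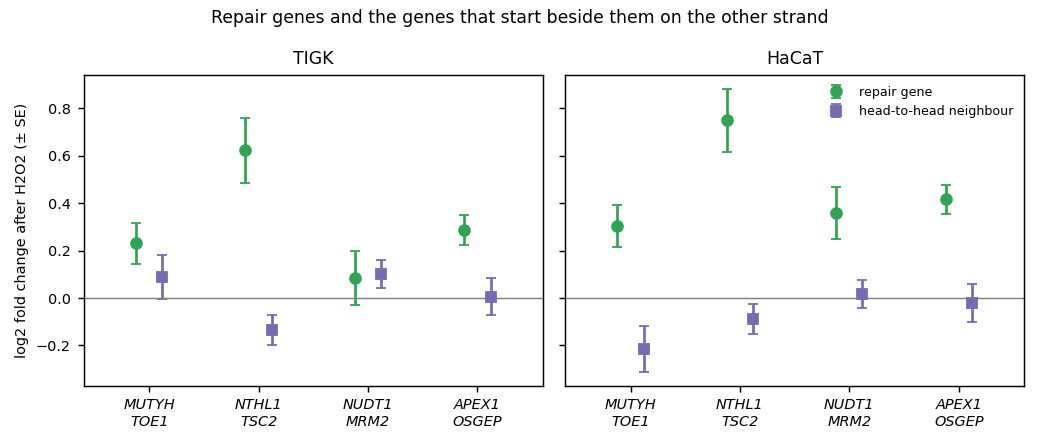
Log2 fold change after H2O2 (vertical axis, ± SE) of 4 repair genes (circles) and of the genes that start beside them on the other strand (squares), in TIGK and HaCaT. NTHL1 (0.62 and 0.75) and APEX1 (0.29 and 0.42) lie above their neighbours TSC2 and OSGEP, which lie at -0.13 to 0.01.

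The response to H2O2 varied with gene length over the whole table. When the tested genes were split by length into 4 classes of like size, the median log2 fold change of the shortest class was 0.09 (TIGK) and 0.19 (HaCaT), and that of the longest -0.10 and -0.13. APEX1, NTHL1 and NUDT1 belong to the shortest class, in which 8.22% of genes rose in TIGK and 21.4% in HaCaT. MUTYH, NEIL2, POLB and XRCC1 belong to the next, with 13.1% and 26.6%. NEIL1 is in the class after that, and OGG1 and PARP1 are in the longest, in which 9.08% rose and 30.6% fell in HaCaT. The part of length in the members' values was not tested.

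The other 44 genes of the pathway, listed by hand, were all tested. After H2O2, 8 rose and 2 fell in TIGK, and 18 rose and 2 fell in HaCaT. Over all genes tested, 10.2% rose and 12.9% fell in TIGK, and 18.9% and 15.2% in HaCaT. The median log2 fold change of the 44 was 0.13 and 0.21, against 0.01 and 0.04 over all genes. Of these, 7 rose in both lines: the uracil glycosylase UNG, the alkyladenine glycosylase MPG, the ADP-ribosylation genes PARP2 and HPF1, the nucleotide hydrolase NUDT5, and the clamp loader subunits RFC2 and RFC4. UNG, PARP2 and RFC4 passed the limit in both lines in all 20 alternatives. Without Tctrl 3, the TIGK calls of MPG, HPF1, NUDT5 and RFC2 were lost (adjusted p = 0.0354, 0.0301, 0.0328 and 0.0349), and the HaCaT call of HPF1 held in 3 of 20 alternatives. PARP2, a partner of PARP1 in break signalling, rose by 0.51 in TIGK (SE 0.0837, adjusted p = 0.000114) and 0.43 in HaCaT (SE 0.083, adjusted p = 0.00037). The 2 that fell were the same in both lines, POLE and POLG, the catalytic subunits of a replicative and of the mitochondrial DNA polymerase. POLE fell by 0.68 in TIGK (SE 0.0693, adjusted p = 4.89e-07) and by 0.63 in HaCaT (SE 0.07, adjusted p = 1.26e-06). Past the limit in HaCaT and not in TIGK were 11 more, led by APLF, a factor for strand-break ends, at 1.11 (SE 0.237, adjusted p = 0.000878). NUDT18, a hydrolase of oxidized nucleotides, passed it in TIGK alone at 1.04 (SE 0.179, adjusted p = 0.000178), from a mean of 54.4 normalized counts in Tctrl to 111.3 in Thp.

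By role, and beside 10.2% of all genes rising in TIGK and 18.9% in HaCaT, 2 of the 6 other glycosylases rose in TIGK and 3 in HaCaT, 2 and 2 of the 6 ADP-ribose genes, 0 and 3 of the 6 genes of end processing and ligation, and 2 and 3 of the 5 other nucleotide pool genes. Of the 18 long-patch genes 2 rose and 1 fell in TIGK, and 7 rose and 1 fell in HaCaT. Many long-patch genes also serve replication. The summed level of 20 S phase genes moved as well, from 108400 to 113100 normalized counts in Tctrl, 118200 to 121000 in Thp, 72430 to 77560 in Hctrl and 87000 to 90990 in Hhp. Its part in the repair genes' values was not tested. In the difference of responses, edgeR called 0 of the 44 with 6 at an unadjusted p below 0.05, and DESeq2 0 with 5. Leaving out Tctrl 3 brought the 10 calls in TIGK to 6, while the share called over all genes went from 23.2% to 17.2%.

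**Figure D5:**
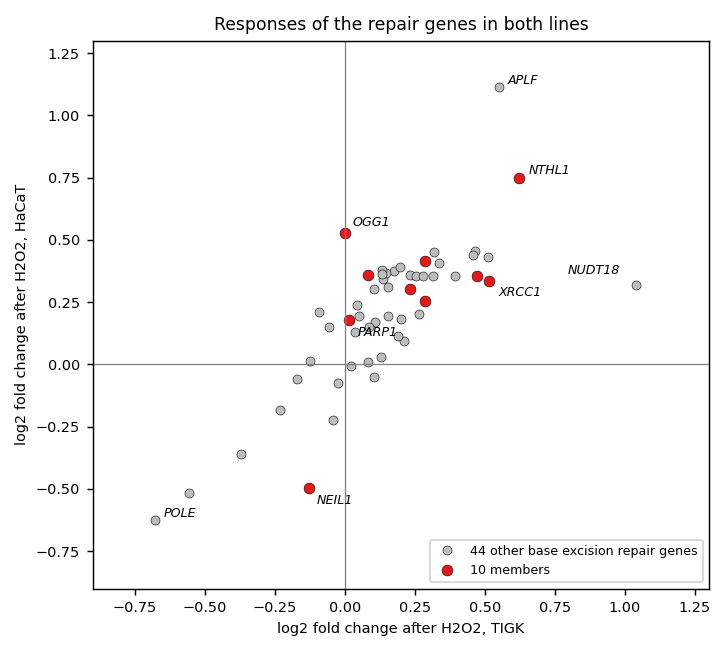
Log2 fold change after H2O2 in TIGK (horizontal axis) and HaCaT (vertical axis) for the 10 members (red) and 44 other genes of the pathway (grey). OGG1 lies on the vertical line at 0 (0.00 in TIGK, 0.53 in HaCaT), NEIL1 below 0 on both axes, and NUDT18 farthest right (1.04).

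Between the lines, 14 of the 44 were higher and 19 lower in HaCaT before H2O2, and 16 higher and 15 lower after it. Over all genes tested, 29.1% were higher and 30.8% lower before H2O2, and 30.2% and 29.8% after it. In both states, 14 were higher and 15 lower, and 0 were called in opposite directions. NUDT18 was higher in HaCaT by 2.37 before H2O2 (SE 0.171, adjusted p = 3.6e-10) and by 1.64 after it (SE 0.157, adjusted p = 1.97e-08). NUDT5, which like NUDT1 and NUDT18 clears oxidized nucleotides, was higher by 1.502 (SE 0.0822, adjusted p = 5.49e-12) and 1.54 (SE 0.0812, adjusted p = 3.09e-12). These 2 and NUDT1 were thus all higher in HaCaT in both states. RFC1, the large clamp loader subunit, was lower in HaCaT by a log2 difference of -1.88 (SE 0.0545) and -1.79 (SE 0.0545). Of the 6 glycosylases outside the 10, 2 were higher and 4 lower in HaCaT before H2O2, and 2 higher and 3 lower after it. MPG was at 1.00 and 0.99 and MBD4 at 0.80 and 0.65, while UNG was at -1.46 and -1.38 and NEIL3 at -1.20 and -1.22, all past the limit.

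For the 3 enzymes against 8-oxoguanine, the genes with the most similar pattern over the 12 libraries were found among 11772 genes by Pearson's r of log2 CPM. They were TMTC4 (0.942), RABGGTA (0.9275) and CAMTA1 (0.9225) for OGG1, HSBP1 (0.986), PPIL3 (0.972) and KATNA1 (0.966) for MUTYH, and C14orf119 (0.987), ZFAND2A (0.986) and NTMT1 (0.984) for NUDT1. The 12 libraries share their 4 groups, so these values mostly rank genes by their group means, and none of the 9 is a member or on the pathway list.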

How the data were processed

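RNA-seq libraries of HaCaT and TIGK were grouped by their labels. The authors deposited raw read counts per gene on GRCh38, made without normalization. The labels name HISAT2 2.0.0 and 2.0.5, StringTie 1.3.3b and featureCounts 1.5.0-p3. The annotation release and the use of strand are not given in the sources used here. The deposited tables of the authors' own DESeq2 comparisons (fold changes and p-values) were not used. The table held 0 unused sample columns and 0 lines without a gene.

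The counts were fitted with edgeR 4.0.16 under R 4.3.3. A gene entered the test if its raw counts averaged 10 or more, libraries were scaled by TMM, and 1 quasi-likelihood model held a mean for each group over the 12 libraries (common dispersion 0.0073, 10.4 prior degrees of freedom). Contrasts gave the response of each line, the line differences and the difference of responses (TIGK minus HaCaT). P-values were adjusted after Benjamini and Hochberg over all 16618 genes tested, with a limit of 0.01, and 95% intervals are not adjusted. Normalized counts are counts divided by the relative effective library size. Levels between genes use CPM per kilobase of the deposited gene length. The model was tested on simulated counts. Taken over the genes together, replicates differed by a chi-square per degree of freedom of 4.53 to 29.7, which is more than counting noise. The part of depth in the spread of each member was not tested.

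The members and gene lists were chosen with earlier results of these data known. Named were all members, and the 3 pathway genes with the largest change past the limit and without overlap in each response and line comparison. Also named were neighbours within 1000 bases, and the tested genes that overlap a member, except RPL5P23 in POLB. The 3 genes most correlated with OGG1, MUTYH and NUDT1 were named too. The other pathway genes named (UNG, HPF1, RFC2, RFC4, POLG, NEIL3, MBD4 and POLD1) were picked after their values were seen. Same-numbered replicates did not deviate together, so no pairing was used. Alternatives were DESeq2 1.42.0, other scalings, filters and limits, fits on the groups compared alone, a replicate block and leaving out each library. Sequences came from RefSeq and figures from Python with matplotlib.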

Additional observations from a re-analysis of the deposited data

Results flagged for a closer look

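In 3 genes of the pathway the log2 response of TIGK less that of HaCaT had an adjusted p below 0.05 in the edgeR test of the difference itself, without reaching the limit of 0.01. For OGG1 it was -0.53 (SE 0.161, adjusted p = 0.039): the treated libraries were above the untreated ones in 3 of 3 in HaCaT and overlapped in TIGK. For POLD1, the catalytic subunit of a replicative polymerase, it was -0.30 (SE 0.0883, adjusted p = 0.0317). For NUDT18 it was 0.72 (SE 0.232, adjusted p = 0.0498).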

How the results depend on the processing

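In the alternatives for single genes that leave out 1 library, 1125 of the values kept direction and side of the limit, 83 lost the limit, 9 passed it anew and 19 changed sign. In the other alternatives these counts were 748, 39, 16 and 9. All changes of sign were in genes that had not passed the limit. With upper quartile scaling the TIGK response was -0.0136 for OGG1, -0.00094 for PARP1 and -0.0104 for OSGEP, and the HaCaT response of MRM2 was -0.0253. MRM2 was at -0.0176 when the HaCaT groups were fitted alone, -0.00862 without a filter and -0.0120 with filterByExpr, and the TIGK response of MAN2C1 was 0.00579 and 0.00716 under these filters. Leaving out 1 library, the response ranged from -0.0392 to 0.0573 for OGG1, -0.000146 to 0.0579 for PARP1, -0.00112 to 0.0606 for OSGEP and -0.0477 to 0.0410 for MAN2C1 in TIGK, and from -0.0238 to 0.0434 for MRM2 and -0.0825 to 0.0260 for OSGEP in HaCaT. The difference of responses ranged from -0.0964 to 0.0162 for MUTYH, -0.293 to 0.101 for NTHL1 and -0.0471 to 0.137 for NEIL2.

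At a limit of 0.05, the calls were 10 members in the HaCaT response and 1 (OGG1) in the difference of responses, and 19 and 2 (POLD1 and NUDT18) of the other pathway genes in the TIGK response and the difference. Over all genes, 36.1% were called at that limit in the TIGK response, 47% in the HaCaT response and 12.1% in the difference. Without 1 library, 2 to 4 members were called in TIGK, 3 to 7 in HaCaT, 5 to 7 between the untreated and 2 to 6 between the treated lines, and 0 in the difference. Of the other pathway genes, 6 to 13, 15 to 23, 30 to 36, 29 to 34 and 0 were called. Of all genes tested, these fits called 17.2% to 27.8%, 26.3% to 35.2%, 54.8% to 61.8%, 55% to 60.5% and 3.23% to 6.55%. DESeq2 called 4, 7, 7, 6 and 0 members, and 28%, 37.2%, 62%, 62.1% and 8.58% of all genes. The replicate block called 3 members in TIGK, 3 in HaCaT, 6 and 5 between the lines and 0 in the difference, and 6 of the other pathway genes in TIGK. Of all genes, the block called 19.5%, 30.2%, 57.4%, 57.7% and 3.65%. It rests on numbers that are not shown to pair samples: the correlation of deviations between libraries of the same number was -0.121 to 0.0257 over 18 pairs, with 0 above 0.1, and between different numbers -0.0287 to 0.118. Over all genes, the share of calls with the higher response in TIGK moved from 43.7% to 63.5% with filterByExpr and 59.7% without a filter, and the share of higher calls in the TIGK response from 44.1% to 54.3% without a filter. The cause of these shifts was not tested. The lowest member, NEIL1, had 115 to 397 raw counts per library, so depth limits its values more than those of the other members.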
